A study of Salmo salar with 6 samples.

Results

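The genes of 7 liver-type plasma and acute phase proteins were followed in the head kidney of Atlantic salmon: apoa2, fgg, hpxa, hp, saa5, hamp and cfd. They were found on the array through the RefSeq accession in each probe's name, and each of the 7 genes had 1 probe, out of 25460 genes matched in all. The genes were chosen with their values on these arrays known, so their levels and their differences between diets are given below as a description, without a test. The fish were juveniles of 252 g fed for 133 days on a basal diet without the additive (control) or on the same feed with 0.1% MPLE, an additive from sage and lemon verbena that contains ursolic acid, other triterpenic compounds, verbascoside and polyphenols. All fish came unvaccinated from 1 farm, were treated with hydrogen peroxide and formaldehyde on arrival and were kept in recirculated water. RNA of individual fish was combined into 3 pools of 6 fish for each diet, and each pool was hybridised to 1 one-colour array. A pool averages 6 fish, so the spread between single fish was not measured, and the labels do not say which tanks a pool came from.

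In vertebrates most plasma proteins are made by hepatocytes and secreted into the blood. During infection or injury, cytokines such as interleukin 6 and interleukin 1 raise the output of some of them, the acute phase proteins, and hepcidin is further controlled by iron through the bone morphogenetic protein pathway. The head kidney of fish is a blood-forming, lymphoid and endocrine organ that lies along the spine, and it is not the main site of plasma protein synthesis.

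Levels are log2 values of the processed signal relative to the 75th percentile of the same array, so 0 is the signal below which 75% of the transcript spots of that array lay. Levels are compared between pools for 1 probe at a time and not between probes. The 75th percentile was between 138 and 470 intensity units in the control pools, with the lowest value in control pool 3, and between 499 and 710 in the MPLE pools, with the highest in MPLE pool 1. Between 18046 (control pool 3) and 33020 (MPLE pool 2) of 42438 transcript spots were well above background. Each array lay on its own slide, the control arrays all in position 1 and the MPLE arrays all in position 2, and the control arrays were scanned first, so diet cannot be told apart from the position on the slide or from the order of scanning. All 6 erythroid marker genes and at least 6 of 7 B and plasma cell marker genes were well above background in every pool, and of 7 interrenal and chromaffin marker genes between 3 (control pool 3) and 6 (MPLE pools 1 and 2) were. In whole tissue, fewer cells of a type and less RNA per cell cannot be told apart.

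The members fell into 3 patterns over the pools. At these levels apoa2, fgg and hpxa spread most, with control pool 2 high and MPLE pool 1 lowest, and hp went partly with them. The levels of saa5 and hamp spread less and were highest in MPLE pool 1, and cfd was higher in every measured MPLE pool than in every control pool. The ranking by spread depended on the processing. Normexp background correction was run on the median spot signal with an offset of 50 intensity units added. The lowest processed signals of fgg, hpxa and hamp, 14.1, 37.4 and 41.6 units, lay below that offset. Its part in the ranges and differences under this setting was not tested. With normexp correction the ranges were 5.91 for apoa2, 3.66 for fgg and 2.71 for hpxa. The other ranges were then 2.82 for hp, 2.93 for saa5, 0.86 for hamp and 4.71 for cfd. With the deposited series values fgg had a range of 3.40, below 4.28 for saa5 and 4.78 for cfd. Only 4 within-diet pairs of pools could then be counted over apoa2, fgg and hpxa, since a pool lacked a value for at least 1 of them. At the main levels the fgg range was 3.67 without MPLE pool 1. The range of 3.40 may thus leave out that pool, and its place below saa5 and cfd may come from that. Under both, apoa2 had the largest range.

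The gene apoa2 encodes apolipoprotein A-II, a protein of high-density lipoprotein particles. Its level was 0.94, 4.20 and 2.06 in control pools 1, 2 and 3 and -2.86, 2.00 and 0.89 in MPLE pools 1, 2 and 3. Control pool 2 stood highest and MPLE pool 1 far below the other pools, while the remaining 4 pools overlapped between the diets. The highest and lowest pools differed by 7.06 on the log2 scale, which is 133-fold, and the processed intensity before scaling ran from 97.7 units in MPLE pool 1, the array with the brightest 75th percentile, to 8602 in control pool 2. The spread was present within each diet: 9.57-fold among the control pools and 28.9-fold among the MPLE pools. Without MPLE pool 1 the range over the other 5 pools was 3.31. Of the tested probes with a value on every array, 99.9% had a smaller range than apoa2, and the median range was 1.27.

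The gene fgg encodes the gamma chain of fibrinogen, the precursor of the fibrin clot and an acute phase protein in mammals. Its level was -3.02, 0.65 and -1.70 in control pools 1, 2 and 3 and -5.65, -1.04 and -2.13 in MPLE pools 1, 2 and 3. The pools stood in the same order as for apoa2 within each diet, pool 2 above pool 3 above pool 1, and the diets overlapped. In MPLE pool 1 the probe was not well above background, so the range of 6.30 (78.8-fold) rests at its lower end on a signal of 14.1 units. The range was 3.67 (12.7-fold) within the controls, where all 3 arrays measured the probe, and 3.67 over all pools when MPLE pool 1 was left out.

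The gene hpxa encodes hemopexin, which binds free heme in plasma. Its level was -2.25, 0.54 and 0.56 in control pools 1, 2 and 3 and -4.24, -0.86 and -1.88 in MPLE pools 1, 2 and 3. Control pools 2 and 3 lay together at the top, control pool 1 lay among the MPLE pools, and MPLE pool 1 was again lowest and not well above background. The range was 4.81 (28.0-fold), a range larger than that of 98.6% of tested probes, and it was 2.82 without MPLE pool 1.

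The gene hp encodes haptoglobin, which binds free hemoglobin and, like hemopexin, belongs to the acute phase proteins of mammals. Its level was 0.36, 2.19 and 2.33 in control pools 1, 2 and 3 and -0.03, 0.58 and -0.29 in MPLE pools 1, 2 and 3. As for hpxa, control pools 2 and 3 were high and control pool 1 lay within the MPLE values, but MPLE pool 1 was not the lowest pool. The range of 2.62 (6.17-fold) was smaller than those of the first 3 genes and larger than that of 87.0% of tested probes.

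**Figure D1:**
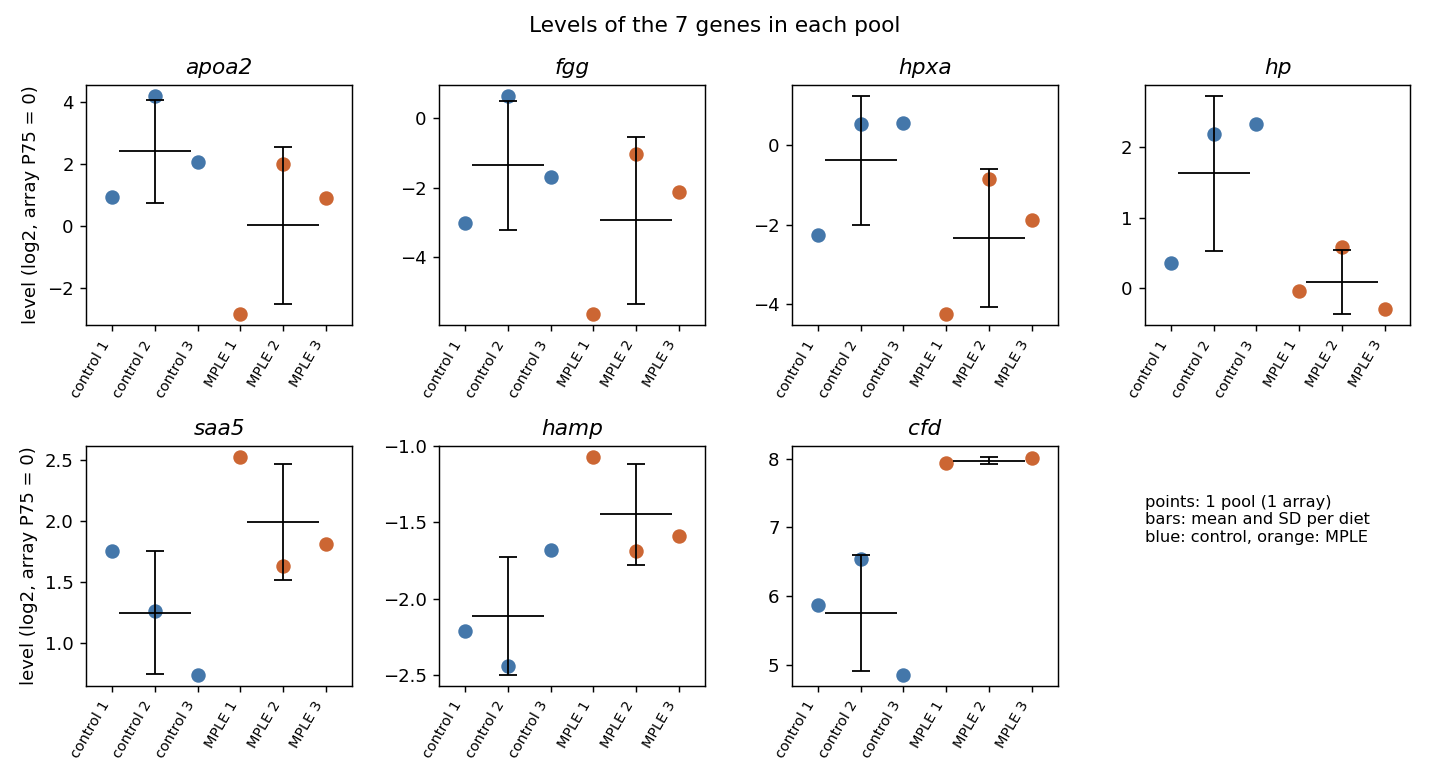
Level of each of the 7 genes in the 6 pools (vertical axis, log2 relative to the 75th percentile of the array, a separate scale for each gene); points are single pools, blue for control and orange for MPLE, and the cfd point of MPLE pool 2 is missing because its spot was flagged as an outlier. Control pool 2 is high and MPLE pool 1 lowest for apoa2, fgg and hpxa, whereas MPLE pool 1 is highest for saa5 and hamp.

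The gene saa5 encodes a serum amyloid A protein, a family of apolipoproteins that is induced in the acute phase of vertebrates. Its level was 1.75, 1.26 and 0.74 in control pools 1, 2 and 3 and 2.52, 1.63 and 1.81 in MPLE pools 1, 2 and 3. MPLE pool 1 was the highest pool here and control pool 3 the lowest, and the diets overlapped because control pool 1 exceeded MPLE pool 2. The range was 1.78 (3.44-fold), larger than that of 70.0% of tested probes, and it was 2.93 with normexp correction and 4.28 with the deposited series values.

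The gene hamp encodes hepcidin, the peptide hormone that lowers iron export from cells and in fish also acts as an antimicrobial peptide. Its level was -2.22, -2.44 and -1.68 in control pools 1, 2 and 3 and -1.07, -1.69 and -1.59 in MPLE pools 1, 2 and 3. MPLE pool 1 was highest, the other MPLE pools lay beside control pool 3, and the diets overlapped narrowly. The range of 1.37 (2.59-fold) was near the middle of all tested probes, 54.6% of which had a smaller one.

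The gene cfd encodes complement factor D, the serine protease that cleaves factor B in the alternative complement pathway, and in mammals it is made largely by adipocytes. Its level was 5.87, 6.53 and 4.85 in control pools 1, 2 and 3 and 7.93 and 8.01 in MPLE pools 1 and 3, and the spot of MPLE pool 2 was flagged as an outlier and left out. The MPLE pools lay close together and above all controls, and cfd was the only member of the 7 whose diets did not overlap. Over all tested probes with a value on every array, 16.1% did not overlap with MPLE higher and 11.9% with MPLE lower. With the outlier spots kept, the cfd level was 7.89 in MPLE pool 2, close to the other MPLE pools.

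Synthetic spike-in RNA, added in labelling, gave a measure of the arrays that holds no fish RNA. The spike-in probe E1A_r60_n9 had levels of 6.94, 6.53 and 5.61 in control pools 1, 2 and 3 and 8.58, 8.44 and 8.50 in MPLE pools 1, 2 and 3. Like cfd it was lowest in control pool 3 and higher in every MPLE pool, with a mean difference of 2.15 against 2.22 for cfd. Another spike-in probe, E1A_r60_n11, had a difference of -0.18, and the 10 spike-in probes ran from -0.49 to 2.91. Only E1A_r60_3 had a larger difference than E1A_r60_n9, and all the others had 0.71 or less. The part of such spike-in differences in the difference of cfd was not tested. The adipocyte marker genes had a median difference of -0.20 over the 7 that were tested, and 0 of them passed the adjusted threshold in either direction. They did not go 1 way, since 3 had a positive and 4 a negative difference. At an unadjusted p under 0.05 (limma), 1 of them was higher and 0 were lower, against 11.5% and 5.89% of all tested probes. The part of adipocytes in the level of cfd was not tested.

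How far the genes stood in the same order over the pools was counted over the 15 pairs of pools, an order shared by 2 genes counting once for each pair in which the same pool was higher for both. The genes apoa2, fgg and hpxa ordered 13 of 15 pairs alike in each of their 3 combinations, and hp ordered 13 pairs like apoa2, 13 like hpxa and 11 like fgg. The median over all tested probes was 8 of 15 for each of these 4 genes. Control pool 2 was the highest control for apoa2, fgg and cfd, as it was for 19.8% of tested probes with a value on every array, and MPLE pool 1 the lowest MPLE pool for apoa2, fgg and hpxa, as it was for 52.8%. MPLE pool 2 was the highest MPLE pool for apoa2, fgg, hpxa and hp, as it was for 52.6%. A high control pool 2 together with a low MPLE pool 1 was found for apoa2 and fgg and for 5.24% of these probes. The counts describe 6 arrays on which the members were chosen, and the pairs share pools, so no test is given.

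The order was also compared within the diets, again as a description of the arrays on which the members were chosen. Of the 6 pairs of pools within a diet, apoa2 and fgg ordered all 6 alike, and hpxa ordered 5 of 6 like either of them, its exception being the close pair of control pools 2 and 3. The median probe ordered 3 of 6 like apoa2, and 1.29% of 22720 probes had the within-diet order of fgg in every pair. The haptoglobin gene hp shared 4 of 6 within-diet pairs with apoa2, 4 with fgg and 5 with hpxa.

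The serum amyloid gene saa5 stood nearly in the opposite order. It ordered 1 of 15 pairs like apoa2, 1 like hpxa, 1 like hp and 3 like fgg, against a median of 7 over all tested probes, and within the diets it shared 0 of 6 pairs with hpxa and 1 each with apoa2, fgg and hp. Hepcidin shared 11 of 15 pairs with saa5, 3 with apoa2, 3 with fgg, 5 with hpxa and 5 with hp. Over the 10 pairs of the 5 pools with a value for cfd, cfd shared 8 with saa5, 6 with hamp, 4 with fgg, 3 with apoa2, 3 with hpxa and 1 with hp.

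**Figure D2:**
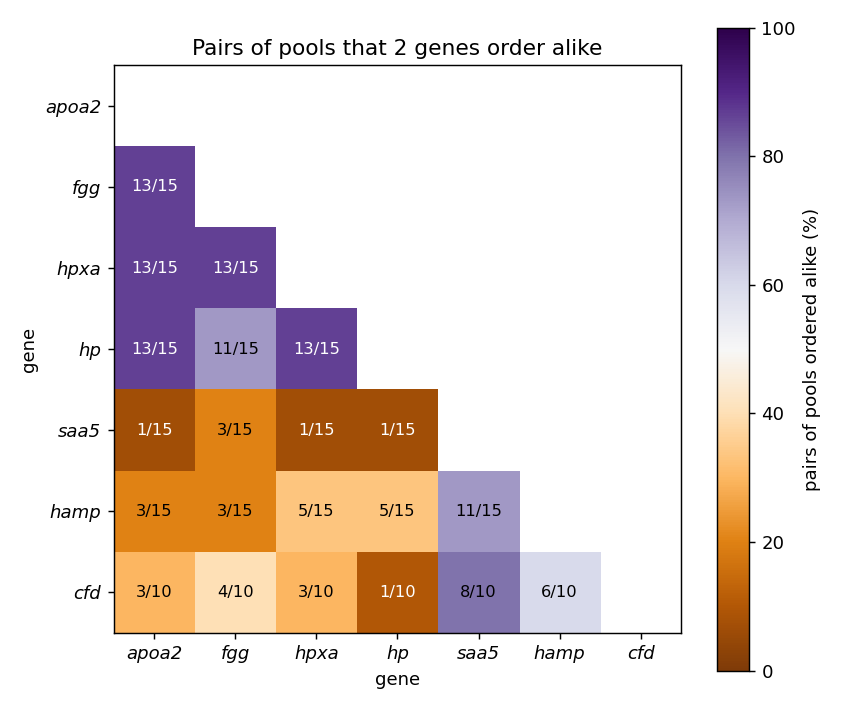
Share of pairs of pools that 2 genes ordered alike (colour and number in each cell, of 15 pairs, or of 10 pairs for cfd). The genes apoa2, fgg, hpxa and hp form a block of 11 to 13 of 15 pairs, and saa5 shares 1 to 3 pairs with each of them.

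Deviations from the mean of each diet show the same pools apart. For apoa2 control pool 2 lay 1.80 above the control mean and control pool 1 lay -1.46 from it, and for fgg these values were 2.00 and -1.66. MPLE pool 1 deviated from the MPLE mean by -2.87 for apoa2, by -2.71 for fgg and by -1.92 for hpxa, but by -0.12 for hp. In the same pool saa5 deviated by 0.53 and hamp by 0.38, in the upward direction. The median range over tested probes was 0.96 among the control pools and 0.40 among the MPLE pools, below the ranges of apoa2, fgg, hpxa and hp in both diets, while the control range of hamp, 0.76, was under that median.

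**Figure D3:**
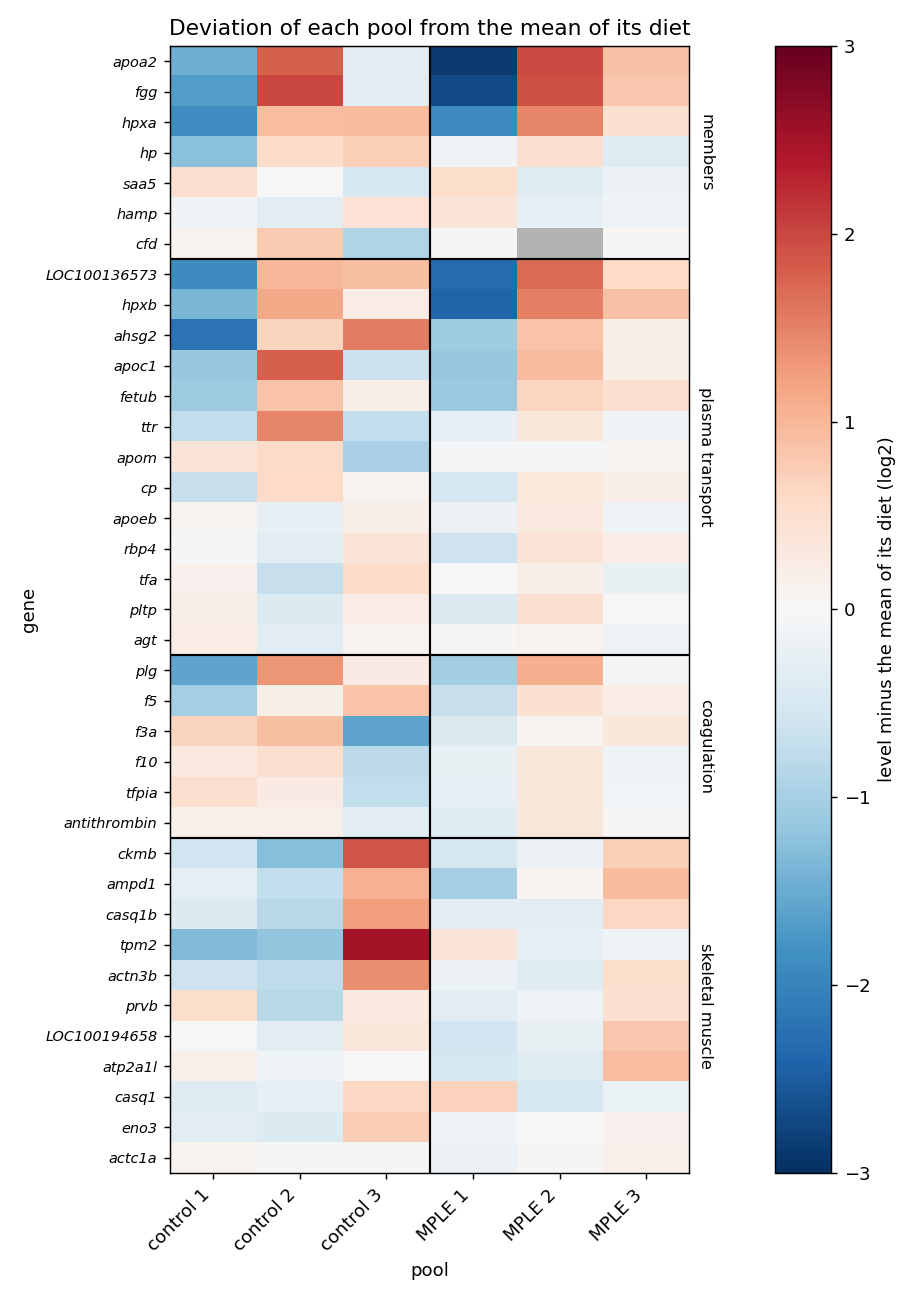
Deviation of each gene from the mean of its own diet in each pool (log2, shown as colour, with genes in rows and pools in columns). The cell of cfd in MPLE pool 2 has no value. Below the members stand the tested plasma transport, clotting and skeletal muscle genes with a value in every pool. The deviations of apoa2 and fgg match in sign in every pool, with MPLE pool 1 at -2.87 and -2.71.

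Between the diets, the mean level of apoa2 was 2.40 ± 1.66 (SD, n = 3 pools) in controls and 0.01 ± 2.55 (SD, n = 3) with MPLE, a difference of -2.39 or a 5.25-fold lower mean level. The fgg means were -1.36 ± 1.86 and -2.94 ± 2.41 (difference -1.58, 2.99-fold lower), and the hpxa means were -0.38 ± 1.62 and -2.33 ± 1.74 (difference -1.94, 3.85-fold lower). For apoa2 and fgg the difference was smaller than the SD of the MPLE pools, and for hpxa it was close to the SD of both diets. Without MPLE pool 1 the differences were -0.96 for apoa2, -0.23 for fgg and -0.99 for hpxa, and without control pool 2 they were -1.49, -0.58 and -1.48. The difference of fgg also turned to 0.21 when arrays were weighted by their fit.

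The hp means were 1.63 ± 1.1 (SD, n = 3) in controls and 0.09 ± 0.45 (SD, n = 3) with MPLE, a difference of -1.54 or 2.91-fold lower. The saa5 means were 1.25 ± 0.50 and 1.99 ± 0.47 (difference 0.74, 1.67-fold higher with MPLE), and the hamp means were -2.11 ± 0.39 and -1.45 ± 0.33 (difference 0.67, 1.59-fold higher). The difference of hamp was -0.08 after normexp background correction, and its range was 0.69 with spike-in centring. The saa5 difference was 0.21 with array weights, 1.24 with normexp correction and 1.71 with the deposited series values. The largest range of a spike-in probe over the 6 pools was 3.46, above the ranges of hp, saa5, hamp and cfd and below those of apoa2, fgg and hpxa. That probe, E1A_r60_3, had low levels of -5.03 to -4.33 in the controls. The median range of the 10 spike-in probes was 1.18, below the range of every member. The cfd means were 5.75 ± 0.85 (SD, n = 3) and 7.97 ± 0.06 (SD, n = 2), a difference of 2.22 or 4.66-fold higher with MPLE.

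In the fit of diet over all probes (limma with Benjamini-Hochberg adjustment, threshold 0.05), 0 of the 7 members passed, and 2 of them, hp and cfd, had an unadjusted p under 0.05. Of 23132 probes tested, 0.467% passed in either direction, and 17.4% had an unadjusted p under 0.05. The members were chosen with this contrast known, so nothing is read from their count. All 7 passed the filter on dim probes, and 5 were well above background on all 6 arrays.

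Other plasma transport proteins and protease inhibitors were taken from a list of which 22 genes had a probe and 14 were tested. Of these, 0 passed the adjusted threshold in either direction (limma, 0.419% of all probes passed as higher and 0.0476% as lower), 4 had a positive and 10 a negative difference, and their median difference was -0.30 against -0.01 over all tested probes. At an unadjusted p under 0.05 there were 2 higher and 1 lower, where 11.5% of all tested probes were higher and 5.89% lower. Of the 21 genes with values in all 6 pools, 6 had the order of fgg in every within-diet pair (28.6%), against 1.04% of all probes with such values. The gene fgg and the lists were chosen with earlier results of these data known. Such shares, here and for the lists below, are therefore a description without a test.

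LOC100136573 carries apoa1, the gene of the main protein of high-density lipoprotein, as a synonym, and it had levels of 1.11, 4.00 and 3.90 in control pools 1, 2 and 3 and -2.06, 1.94 and 0.83 in MPLE pools 1, 2 and 3. It was thus highest in control pools 2 and 3 and lowest in MPLE pool 1, with a range of 6.06 (66.6-fold). The fetuin gene ahsg2 had levels of -1.24, 1.65 and 2.52 in the controls and -1.74, 0.19 and -0.48 with MPLE, and its relative fetub had -1.97, -0.05 and -0.70 in the controls and -2.85, -1.09 and -1.25 with MPLE. Both had MPLE pool 1 lowest. The apolipoprotein B gene apobb.1 had levels of -0.63, 1.06 and 0.77 in the controls and -0.12 and -0.91 in MPLE pools 1 and 3, with the spot of MPLE pool 2 flagged as an outlier, so control pool 2 was highest and MPLE pool 1 not lowest. The gene cp of the ferroxidase ceruloplasmin, named after its values were seen, had -2.79 in MPLE pool 1, its lowest pool, and -0.86 in control pool 2, its highest.

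The second hemopexin gene hpxb, named after its values were seen, had levels of -3.38, -0.87 and -1.78 in control pools 1, 2 and 3 and -5.97, -2.04 and -2.67 in MPLE pools 1, 2 and 3. It followed the pools as fgg did and, like hpxa, was not well above background in MPLE pool 1. Not all carriers did so. The transferrin gene tfa ranged over 1.28, the retinol carrier rbp4 over 1.37 and the angiotensinogen gene agt over 0.57, and these 3, also named after their values were seen, were well above background in every pool.

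On the chromosome, in the gene order of assembly Ssal_v3.1, apoa2 stands in a cluster of apolipoprotein genes in the order apoeb, apoc1, apoa2 and apoc2, each with 1 probe. The build behind the probes is not given here, and that assembly is used for gene names and order alone. The levels of apoc1, a small apolipoprotein of lipoprotein particles, were -1.59, 1.33 and -1.09 in control pools 1, 2 and 3 and -1.66, 0.43 and -0.31 in MPLE pools 1, 2 and 3. Pool 2 was highest and pool 1 lowest in each diet, as for apoa2, but MPLE pool 1 lay at the level of control pool 1, and the range was 3.00. The levels of apoeb, an apolipoprotein E gene, were -1.84, -2.16 and -1.75 in the controls and -1.14, -0.68 and -1.09 with MPLE, so control pool 2 was its lowest pool and the diets did not overlap. The lipase cofactor gene apoc2 was not well above background in any pool. These neighbours were picked by position, not by value.

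**Figure D4:**
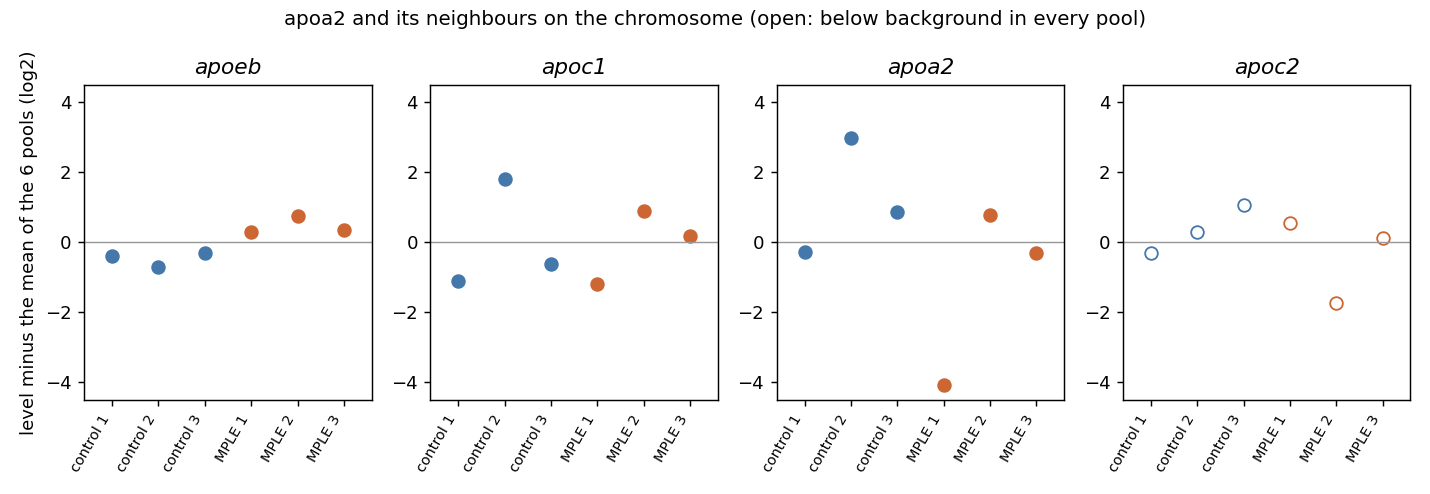
Level of apoa2 and of its neighbours in chromosome order, each minus the mean of the 6 pools (vertical axis, log2; blue for control, orange for MPLE; open points for apoc2, which was below background in every pool). The high control pool 2 is shared by apoc1 and apoa2, and apoeb is lowest in that pool.

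The clotting and fibrinolysis list had 12 genes on the array, of which 6 were tested and 0 passed the adjusted threshold. At an unadjusted p under 0.05 (limma), 0 were higher and 1 lower, against 11.5% and 5.89% of all tested probes. The median difference of the list was 0.61. It was -0.05 without control pool 3, -0.15 with normexp correction and -0.96 with no filter on dim probes. Only 3 of the genes were well above background on all arrays: f10, the factor X gene, with a range of 1.89, tfpia, an inhibitor of the tissue factor pathway, with 1.73, and antithrombin with 1.19, and MPLE pool 2 was highest for each.

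The clotting genes with the within-diet order of fgg were not well above background in every pool, and they are named after their values were seen. The plasminogen gene plg had levels of -2.89, 0.01 and -1.07 in control pools 1, 2 and 3 and -3.76, -1.66 and -2.76 in MPLE pools 1, 2 and 3, the within-diet order of fgg with a range of 3.77. The protein C gene proca and the factor VII gene f7 had that order too, so 3 of 12 genes (25.0%) did, but proca was well above background in only 2 pools and f7 in 3. The partner chain of fibrinogen, fga, was well above background in 1 pool, so its values could not be set against those of fgg.

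Of 15 complement genes on the array, 9 were tested and 0 passed the adjusted threshold, with 0 in either direction also at an unadjusted p under 0.05. The median difference was 0.03, and it was -0.11 without control pool 2, 0.22 without control pool 3 and -0.50 with no filter on dim probes. Among those well above background in every pool, the genes with the largest ranges were c7a (2.1), c8g (1.87), c6.2 (1.23), all parts of the membrane attack complex, and mbl2 (1.06), a mannose-binding lectin. For c7a, c6.2 and mbl2 control pool 3 was the highest pool, and control pool 2 was the lowest of the controls for c7a and mbl2, unlike for fgg. The dim genes c8a and c8b of the same complex had the within-diet order of fgg, the only 2 of the 15 to do so (13.3%). Of all probes with a value in every pool, 1.04% had it.

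The pentraxin gene crp, the only non-member of the acute phase list on the array, had levels of 1.40, 0.73 and 1.42 in control pools 1, 2 and 3 and 0.78, 1.03 and 0.56 in MPLE pools 1, 2 and 3. Its pools differed by 0.86 in all, and it was lowest among the controls where apoa2 and fgg were highest.

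Of the signals that drive the acute phase in the liver, 13 genes were on the array and 12 were tested. Their median difference was -0.03, and 0 passed the adjusted threshold. At an unadjusted p under 0.05 (limma), 3 were higher and 0 lower, against 11.5% and 5.89% of all tested probes. The cytokine gene il6 had levels of -1.04, -1.66 and -2.42 in control pools 1, 2 and 3 and -0.91, -0.17 and -0.01 in MPLE pools 1, 2 and 3. All its MPLE pools were above all its control pools, the mean difference was 1.34, and the adjusted p was 0.187 (limma). The gene il6ra, which encodes a chain of the interleukin 6 receptor, had a difference of 1.44 (adjusted p 0.227), il1rap, a chain of the interleukin 1 receptor, -0.75 (0.362), and cebpa, a liver and myeloid transcription factor, -0.57 (0.395). The diets did not overlap for any of these 4 genes, and control pool 3 was the farthest from the MPLE pools for each. These 4 are among 6 of the 12 genes whose diets did not overlap, 3 with MPLE higher and 3 with MPLE lower, where 16.1% and 11.9% of probes did so.

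All 13 genes of iron, heme and hepcidin control on the array were tested, and 0 passed the adjusted threshold. At an unadjusted p under 0.05 (limma), 2 were higher and 1 lower, against 11.5% and 5.89% of all tested probes. The median difference of the 13 genes was -0.04. Among those well above background in every pool, the widest ranges were those of the ferrireductase gene steap3 (2.20), of the inhibitors of bone morphogenetic protein signalling smad7 (2.07) and smad6b (1.21), and of the transferrin receptor gene tfr1a (0.81). The levels of smad7 were -0.67, 0.68 and -0.32 in control pools 1, 2 and 3 and -0.79, -1.39 and -1.30 in MPLE pools 1, 2 and 3, a difference of -1.06 (adjusted p 0.241). The ligand gene bmp6, named after its values were seen, had a difference of 1.04 (adjusted p 0.121) and was well above background in 1 control pool and 3 MPLE pools.

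Of 21 genes that act inside hepatocytes and had a probe on the array, 13 were tested, and the median difference was -0.16. At an unadjusted p under 0.05 (limma), 1 was higher and 3 were lower, against 11.5% and 5.89% of all tested probes. At the adjusted threshold 0 passed as higher and 1 as lower, against 0.419% and 0.0476% of all tested probes. The gene that passed was agxtb, an alanine-glyoxylate aminotransferase, with levels of -0.82, -1.45 and -0.55 in control pools 1, 2 and 3 and -3.18, -3.99 and -3.80 in MPLE pools 1, 2 and 3, a difference of -2.72 (limma, adjusted p 0.0397). Its diets were separate, and it did not follow the pools as apoa2 did, since control pool 2 was the lowest control and MPLE pool 1 the highest of its diet. The probe was well above background in 3 control and 2 MPLE pools. The call was lost when any pool other than control pool 2 was left out. It was also lost under quantile normalization, normexp correction, no filter on dim probes and the deposited series values. With the filter to probes bright on every array agxtb was not tested, since its probe was not well above background in MPLE pool 3.

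The urea cycle gene cps1, the bile acid transporter slc10a1 and the plasma protein genes c9, apoba and ahsg1 were not well above background in any pool. The metabolic genes haao (range 2.25), g6pc1a.1 (1.66), hao1 (1.58) and sardh (1.19) were measured in every pool, and control pool 3 was highest for each of them. That array had the lowest 75th percentile, and it was also the highest control by summed signal in most of the gene lists. Only hal of the 21 genes had the within-diet order of fgg (4.76%). That share stands beside 28.6% for the transport proteins, 25.0% for the clotting genes and 1.04% of all probes with a value in every pool. These shares are a description, since fgg and the lists were chosen with earlier results of these data known. The hal probe was well above background in only 1 control and 1 MPLE pool. Its levels in MPLE pools 1, 2 and 3 were close together, at -5.92, -5.76 and -5.92. Other genes of the list shared part of that order. The genes tat, hpda and sardh ordered 5 of 6 within-diet pairs like fgg, agxtb and hao1 ordered 1, and the rest 2 to 4. Of these, tat and hpda were not well above background in every pool. The number of these 21 genes well above background was 14, 15 and 9 in control pools 1, 2 and 3 and 12, 18 and 13 in MPLE pools 1, 2 and 3, lowest and highest in the same pools as the count of bright spots over the whole array. The summed signal of the list ran from 3.51 to 4.05 in controls and from 3.32 to 3.46 with MPLE (log2 of the sum), with control pool 2 the lowest control. A large part of it came from bright genes such as haao, otc and gnmt. The haao levels were 1.65, 0.57 and 2.82 in control pools 1, 2 and 3. Dim genes of the list add little to the sum, so it says little about them.

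Markers of other tissues also differed between pools. Of 14 skeletal muscle genes on the array 11 were tested, and 0 passed the adjusted threshold. At an unadjusted p under 0.05 (limma), 1 was higher and 7 were lower, against 11.5% and 5.89% of all tested probes. The muscle genes had a median difference of -1.69. Their summed signal ran from 5.75 to 6.80 in controls and from 6.01 to 6.4 with MPLE, and was highest in control pool 3. The muscle creatine kinase gene ckmb reached 5.18 in control pool 3 against 2.02 in control pool 2. Control pool 3, the array with the lowest 75th percentile, also had the highest summed signal of the controls in most other lists. The exceptions were the lists of clotting, exocrine pancreas and interrenal and chromaffin genes. Control pool 2, the highest control for apoa2 and fgg, was so for 19.8% of tested probes. The summed signal of the 10 adipocyte genes ran from 5.49 to 6.54 in controls and from 5.30 to 5.50 with MPLE. Most of it came from cebpa (4.94 to 6.28 over the pools), which is also among the acute phase signals, so the sum mainly follows that gene. The sum of the 6 exocrine pancreas genes ran from 0.41 to 1.11 in controls and from 1.12 to 1.50 with MPLE. One gene of each of these 2 lists had the within-diet order of fgg, plin1 of adipocytes and ela3l of pancreas, and no muscle gene had it. The ela3l probe was well above background in 1 MPLE pool and in no control pool. In the lists of blood cells, thrombocytes and endothelium, interrenal and chromaffin cells and kidney tubule, 4 to 8 genes each were tested, 0 passed the adjusted threshold, and the median difference lay between -0.39 (kidney tubule) and 0.23 (monocyte and macrophage). The part of these tissues in the levels of the members was not tested.

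The genes most like each member were sought among 4474 named genes measured on all 6 arrays, by the root mean square difference of the levels after each gene was centred on its own mean. The nearest to apoa2 were fetub (1.29) and proser3 (1.35), against a median of 2.12 over all probes, and the same pair was nearest to fgg (1.09 and 1.23, median 1.95). The nearest to hpxa were ahsg2 (0.55) and fetub (0.86, median 1.64). Of these, fetub and ahsg2 are genes of secreted plasma proteins. Genes with only a locus number were not searched, and some of them lay nearer: LOC100136573, with the synonym apoa1, lay at 0.71 from apoa2, 0.91 from fgg and 0.45 from hpxa. The proser3 levels were -2.19, 1.36 and -1.04 in the controls and -2.67, -2.10 and -2.32 with MPLE, so control pool 2 was highest and the MPLE pools lay close together.

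For hp the nearest were sdk2b (0.19) and pcdh12 (0.40, median 1.01), for saa5 dlc1 (0.09) and dirc2 (0.10, median 0.73), and for hamp lingo3b (0.10) and slc2a6 (0.11, median 0.59). The smaller distances of these 3 members go with their smaller ranges. The gene cfd was not included because it had no value on 1 array.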

How the data were processed

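The 7 genes and all gene lists were chosen with earlier results of these data known. Pools were labelled with Cy3 and put on Agilent arrays with 1 colour, per the labels' protocols. Per the file headers, the authors' files of design 084881 were read with Feature Extraction 10.7.3.1, whose processed signal is a background-subtracted intensity, not scaled between arrays. The deposited series values are log2 of another measure in the same files, the background-subtracted signal (equal within 5e-09, scaling between arrays none). They differ from the processed signal and served as an alternative. Since the arrays have 1 colour, no dye direction is needed.

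The processed intensity was set to log2 after spots flagged as outliers (6 to 205 per array) were removed, each array's 75th percentile was subtracted and replicate spots were averaged. Probes entered where all arrays of 1 diet or of both had them well above background, in a fit of diet alone (limma 3.58.1, R 4.3.3, two-sided, Benjamini-Hochberg over 23132 probes, threshold 0.05), which was also tested on simulated data. Pools are separate RNA samples, and p-values rest on the spread between pools and arrays. The array number limits the precision. Accessions in probe names were matched, without versions, to RefSeq genes of Ssal_v3.1 (25641 of 42386 probes), and lists by symbol or synonym. Summed signals are log2 of the summed scaled signals of a list's genes with a value on every array.

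Named genes were the 7 members, of each list up to 4 genes with the largest range among those well above background on all arrays and any past the threshold, and the 2 genes nearest each member. Of the lists of other tissues and cell types, ckmb alone is named by this rule, and the rest are summarised. Genes such as hpxb, apoc1, plg, proca, f7, fga, c8a, c8b, c9, apoba, ahsg1, cps1, slc10a1, hal, tat, hpda, plin1, ela3l, tfa, rbp4, agt and bmp6 were named after their values were seen or by chromosome position. Promoter motifs were planned but not run, since no promoter sequences were used here. Sequences are not shown. Pool numbers were not used to pair the samples, since the labels do not say that they are shared between the diets.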

Additional observations from a re-analysis of the deposited data

How the results depend on the processing

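The count of probes past the threshold, 108 (97 higher, 11 lower), was 19 with quantile normalization, 14 with spike-in centring (8 higher, 6 lower), 28 with normexp correction, 0 with no filter on dim probes (limma; 4107 at an unadjusted p under 0.05), 10 with the deposited series values (10 higher, 0 lower) and 2971 with array weights (2030 higher, 941 lower). It was 109 with only probes well above background on every array (87 higher, 22 lower), 123 with outlier spots kept and 86 with an intensity trend and robust variance. Leaving out 1 pool gave 0 to 166 calls, with 0 without any 1 of the MPLE pools. The labels do not say whether pool numbers pair the samples. Same-numbered pools deviated from their diet means with correlations of -0.18, -0.34 and 0.08 over all tested probes. Pools with unlike numbers had -0.32 to 0.47, so these values cannot settle the pairing. The replicate block of pool number gave 475 calls. Members past the threshold numbered 0, or 1 with array weights (cfd), 3 with the block (apoa2, hpxa, cfd) and 0 to 0 leaving out 1 pool. Liver-type list genes past it numbered 1, or 8 with array weights, 3 with the block and 0 to 1 leaving out 1 pool. They numbered 0 with quantile normalization, normexp correction, no filter, only probes bright on every array and the deposited values. With only probes bright on every array agxtb, the gene called in the main setting, was not tested. The share of within-diet pairs ordered alike by apoa2, fgg and hpxa was 83.3% of 6 pairs, and 75% to 100% in these alternatives. Only 4 pairs could be counted with 1 pool left out or with the deposited values. Of 84 alternative values of the member differences that moved at all, 82 kept their sign, and the exceptions were fgg at 0.21 with array weights and hamp at -0.08 with normexp correction. Differences ranged from -3.38 to -0.67 for apoa2, -2.88 to -0.22 for hpxa, 0.21 to 1.71 for saa5 and 1.77 to 2.91 for cfd. The median difference over all tested probes, -0.01, was -0.46 with spike-in centring, -0.21 with normexp correction, -0.24 with no filter and 0.22 with the deposited values. The causes of these changes were not tested, and signals near background limit fgg and hpxa in MPLE pool 1.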
